A study of Mus musculus with 10 samples.

Results

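The 6 transcription factor genes described here, Ptf1a, Rbpjl, Bhlha15, Nr5a2, Gata4 and Gata6, are known for setting up or maintaining the identity of the acinar cells of the pancreas. They were chosen by symbol from a table of raw read counts of 24421 genes in pieces of mouse pancreas, and all 6 were in the table and passed the filter on low counts. Each was followed across the mice and set against the level of the digestive enzyme transcripts in the same library. The question named in the series title is the role of the acinar insulin receptor in enzyme production and inflammation.

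RNA was sequenced from a piece of the pancreas tail of female mice aged 12 weeks, 1 library per mouse and 10 libraries in all. Every mouse carried Ptf1aCreER, a tamoxifen-inducible Cre recombinase under control of Ptf1a, and the nuclear reporter nTnG. The labels do not say whether the Cre insertion disrupts a copy of Ptf1a, nor when tamoxifen was given, and the same driver was present in all groups. The insulin receptor gene was Insrw/w (0 floxed alleles) in 3 mice, labelled Insr WT. It was Insrw/f (1 floxed allele) in 3 mice, labelled Insr Het, and Insrf/f (2 floxed alleles) in 4 mice, labelled Insr KO. WT therefore refers to Insr alone, and Cre acts only in cells that express the driver, so other cells of the piece keep their floxed alleles. Libraries are named by genotype and mouse number, as in WT-2404.

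PTF1A, a basic helix-loop-helix (bHLH) protein, works in a complex of 3 proteins with a common bHLH partner, encoded by Tcf3, Tcf12 or Tcf4, and with an RBPJ protein. In the developing pancreas that protein is RBPJ, the DNA-binding protein of Notch signalling, and in mature acinar cells its relative RBPJL takes the place. The complex binds an E-box and a nearby RBPJ core in the control regions of many digestive enzyme genes and of Rbpjl and Ptf1a themselves. MIST1, the product of Bhlha15, is a bHLH factor that scales up the secretory apparatus, including the granule GTPases and the Golgi calcium pump. NR5A2 is a nuclear receptor that binds with the PTF1 complex at enzyme genes. GATA4 and GATA6 are zinc finger factors of the early pancreas, and GATA6 is also known for maintaining adult acinar cells.

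RefSeq promoters (GRCm38.p6) were matched for 4 of the 6 genes, Ptf1a, Rbpjl, Bhlha15 and Nr5a2, which have 5 starts between them. Shown are the stretches before the starts of the factors with the widest ranges between libraries, of Ptf1a and of 2 enzyme genes. The enzyme genes, Ctrb1 (chymotrypsinogen) and Cpa1 (carboxypeptidase A), are among the 10 of 27 enzyme starts with both an E-box and an RBPJ core. Binding of the complex to these letters was not measured. Each stretch ends at the base before the RefSeq start, except that of Rbpjl, where the last 53 bases lie in an annotated exon and are left off. They are written 5′ to 3′ on the strand of the gene, and capitals mark the E-box CANNTG and the RBPJ core TGGGAA on either strand (TTCCCA on the other).
Rbpjl, chr2:164402944-164403140 (+): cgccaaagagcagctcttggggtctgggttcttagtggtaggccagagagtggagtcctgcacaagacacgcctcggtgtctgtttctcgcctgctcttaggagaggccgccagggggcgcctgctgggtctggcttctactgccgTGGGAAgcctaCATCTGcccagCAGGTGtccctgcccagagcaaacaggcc
Bhlha15, chr5:144190036-144190285 (+): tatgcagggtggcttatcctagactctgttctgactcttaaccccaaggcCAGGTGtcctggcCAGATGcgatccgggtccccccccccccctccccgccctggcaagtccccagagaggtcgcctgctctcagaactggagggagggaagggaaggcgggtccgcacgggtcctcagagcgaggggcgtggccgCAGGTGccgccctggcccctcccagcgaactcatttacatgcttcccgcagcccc
Ptf1a, chr2:19445413-19445662 (+): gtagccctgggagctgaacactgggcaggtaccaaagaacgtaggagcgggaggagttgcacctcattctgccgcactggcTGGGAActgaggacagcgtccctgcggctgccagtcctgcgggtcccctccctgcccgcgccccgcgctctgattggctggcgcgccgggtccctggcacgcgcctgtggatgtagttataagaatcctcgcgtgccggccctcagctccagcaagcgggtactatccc
Ctrb1, chr8:111691011-111691260 (-): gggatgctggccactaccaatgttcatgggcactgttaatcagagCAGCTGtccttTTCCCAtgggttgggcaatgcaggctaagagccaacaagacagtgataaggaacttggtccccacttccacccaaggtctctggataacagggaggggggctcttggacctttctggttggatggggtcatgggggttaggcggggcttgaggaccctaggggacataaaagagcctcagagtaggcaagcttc
Cpa1, chr6:30638968-30639217 (+): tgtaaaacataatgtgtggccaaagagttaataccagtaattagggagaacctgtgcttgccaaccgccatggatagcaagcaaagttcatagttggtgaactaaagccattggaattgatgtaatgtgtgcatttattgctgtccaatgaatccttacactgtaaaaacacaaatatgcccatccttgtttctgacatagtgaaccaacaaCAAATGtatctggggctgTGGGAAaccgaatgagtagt

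Rbpjl carries the RBPJ core TGGGAA 104 bases before its start and E-boxes 93 and 82 bases before it, counted to the first base of each. Ctrb1 has the same pair of letters 205 (CAGCTG) and 194 (TTCCCA) bases before the start, and Cpa1 has it 38 (CAAATG) and 20 (TGGGAA) bases before. Bhlha15 has 3 E-boxes and no RBPJ core in this window, and Ptf1a has the core 169 bases before its start and no E-box. Over 250 bases, both letters stood together before 10 of 27 enzyme starts (37.0%), 1 of the 5 starts of these factors (20.0%) and 14.8% of all 32851 RefSeq promoters. The E-box alone stood before 81.5% of the enzyme starts, 80.0% of those of the factors and 66.2% of all. The GATA core AGATAA, on either strand, was found before 2 of the 5 starts of the factors (Rbpjl and 1 start of Nr5a2), 22.2% of enzyme starts and 9.99% of all. That of Rbpjl, 31 bases before its RefSeq start, lies in the annotated exon left off above. The NR5A2 half-site core AAGGTCA was before 0 of the 5, 11.1% of enzyme starts and 4.08% of all. These are matches of letters only, described without a test.

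The 10 libraries held 11718559 to 19024351 counts in genes. The acinar markers made the tissue plain in every library: the 8 fixed markers, Cpa1 and Ctrb1 among them, summed to 22373 CPM in WT-2404 and to 165076 or more in the other 9 libraries. Here and below, CPM (counts-per-million) are taken over the library size scaled with TMM factors. The factor was 3.54 in WT-2404 and 0.596 to 1.56 in the other libraries, so the CPM of WT-2404 depend strongly on this scaling. The enzyme level is the log2 ratio of the counts of 30 digestive enzyme genes to the counts of all other genes. It was -2.42, 0.48 and 1.32 in WT-2404, WT-1860 and WT-2067, 1.31 to 1.67 in Het and 0.72 (KO-2124) to 1.77 in KO. WT-2404 thus stood far below the rest, with 15.7% of its counts from enzymes against 58.3% to 77.3%. Insr itself, the targeted gene, stood at 21.0 to 40.5 CPM in WT, 28.2 to 44.2 in Het and 22.7 to 35.5 in KO libraries, and whole-gene counts of a mixed tissue do not check the deletion. In bulk tissue, fewer acinar cells and less RNA per acinar cell cannot be told apart.

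**Figure D1:**
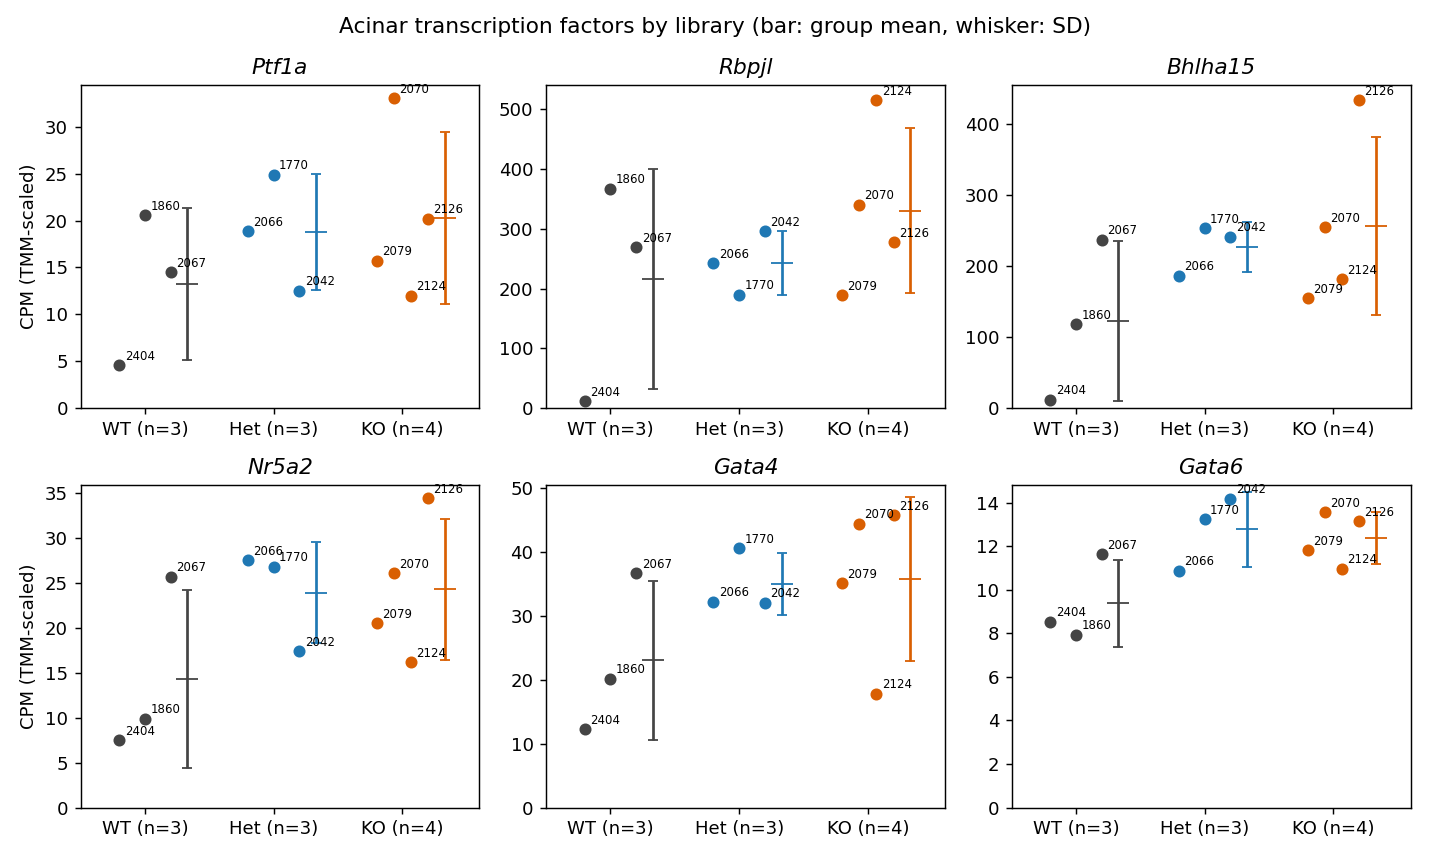
CPM of the 6 factors in each library (points, labelled with the mouse number) by genotype, with the group mean and SD beside them; axes start at 0. WT-2404 is the lowest library for Ptf1a, Rbpjl, Bhlha15, Nr5a2 and Gata4, and the ranges of the 3 genotypes overlap for every factor.

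Ptf1a (2:19445663-19447501, plus strand, GENCODE M21 on GRCm38) stood at 4.55, 20.6 and 14.5 CPM in WT-2404, WT-1860 and WT-2067. It stood at 18.9, 24.9 and 12.5 CPM in Het-2066, Het-1770 and Het-2042. In KO-2079, KO-2070, KO-2124 and KO-2126 it stood at 15.7, 33.1, 12.0 and 20.2 CPM. Only WT-2404 was apart on the low side, KO-2070 was the highest, and the 3 genotypes overlapped. The KO minus WT difference was 0.62 on the log2 scale (SE 0.48, edgeR quasi-likelihood test, adjusted p = 0.451), and the Het minus WT difference 0.52 (SE 0.51, adjusted p = 0.572). Without WT-2404 they were 0.18 (adjusted p = 0.889) and 0.10 (adjusted p = 0.940), and without WT-1860 1.10 and 0.997. The antisense gene Ptf1aos, which shares 609 exonic bases with it, had 0 to 2 counts.

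Rbpjl (2:164403141-164415448, plus strand), the acinar RBPJ relative, had the widest range of the 6, 45.5-fold. It stood at 11.3 CPM in WT-2404 but at 367 in WT-1860 and 270 in WT-2067. Het-2066, Het-1770 and Het-2042 had 243, 189 and 296 CPM, and KO-2079, KO-2070, KO-2124 and KO-2126 had 189, 341, 516 and 277. The highest values belonged to KO-2124 and WT-1860, which were also the libraries with the lowest enzyme levels after WT-2404. The KO minus WT difference was 0.62 (SE 0.79, edgeR adjusted p = 0.656), and without WT-2404 it was 0.055 (adjusted p = 0.968). Het minus WT was 0.17 (SE 0.83, adjusted p = 0.919), and without WT-2404 it was -0.37 (adjusted p = 0.753). Without WT-1860 the KO and Het differences were 1.23 and 0.79, and without WT-2067 0.81 and 0.37. Of the reads of overlapping genes, Matn4, which shares 149 exonic bases on the opposite strand, had 88 to 355 counts, and use of strand in the counting is not stated.

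Bhlha15 (5:144190286-144194441, plus strand) ranged 37.9-fold. It stood at 11.5, 118 and 237 CPM in WT-2404, WT-1860 and WT-2067, and at 186, 253 and 241 CPM in Het-2066, Het-1770 and Het-2042. KO-2079, KO-2070, KO-2124 and KO-2126 had 155, 255, 182 and 434 CPM. Here WT-2404 and WT-1860 were the lowest of all, and WT-2067 lay within the Het range. Its KO minus WT difference, 1.07 (SE 0.73), was the highest of the 6 and did not pass (edgeR adjusted p = 0.383). Het minus WT was 0.89 (SE 0.76, adjusted p = 0.508). Without WT-2404 these were 0.51 (adjusted p = 0.679) and 0.36 (adjusted p = 0.786), and without WT-2067 1.997 (adjusted p = 0.127) and 1.82 (adjusted p = 0.176).

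Nr5a2 (1:136842571-136960448, minus strand) stood at 7.503, 9.90 and 25.7 CPM in WT-2404, WT-1860 and WT-2067. It stood at 27.6, 26.8 and 17.4 CPM in Het-2066, Het-1770 and Het-2042 and at 20.5, 26.1, 16.2 and 34.5 in KO-2079, KO-2070, KO-2124 and KO-2126. In CPM, WT-2404 and WT-1860 lay below every library with a floxed allele, and WT-2067 lay among them. KO minus WT was 0.76 (SE 0.41, edgeR adjusted p = 0.271) and Het minus WT 0.75 (SE 0.43, adjusted p = 0.333). Without WT-2067 these became 1.49 (adjusted p = 0.0223) and 1.47 (adjusted p = 0.0330), so that mouse decides the calls. The calls were not particular to Nr5a2. Of 14172 genes tested without WT-2067, 1932 passed for KO minus WT and 1160 for Het minus WT. The WT group then held only WT-2404 and WT-1860, the libraries with the lowest enzyme levels of all. Without WT-2404 both differences of Nr5a2 were 0.43 (adjusted p = 0.713 and 0.732).

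Gata4 stood at 12.3, 20.2 and 36.6 CPM in WT-2404, WT-1860 and WT-2067, at 32.2, 40.5 and 32.05 in Het-2066, Het-1770 and Het-2042, and at 35.1, 44.4, 17.8 and 45.7 in KO-2079, KO-2070, KO-2124 and KO-2126. KO-2124 fell between 2 of the WT libraries, and the other 3 KO libraries lay near or above the Het values. KO minus WT was 0.64 (SE 0.38, edgeR adjusted p = 0.317) and Het minus WT 0.61 (SE 0.40, adjusted p = 0.392). Without WT-2404 both were 0.31 (adjusted p = 0.775 and 0.789), and without WT-2067 they were 1.15 (adjusted p = 0.0520) and 1.12 (adjusted p = 0.0732).

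Gata6 varied least, 1.79-fold. It stood at 8.54, 7.93 and 11.6 CPM in WT-2404, WT-1860 and WT-2067, at 10.9, 13.2 and 14.2 in Het-2066, Het-1770 and Het-2042 and at 11.8, 13.6, 10.97 and 13.1 in KO-2079, KO-2070, KO-2124 and KO-2126. Unlike the other 5 in CPM, it was not at its lowest in WT-2404. KO minus WT was 0.40 (SE 0.19, edgeR adjusted p = 0.224) and Het minus WT 0.45 (SE 0.20, adjusted p = 0.242). The opposite-strand transcript 1010001N08Rik shares 93 exonic bases with Gata6 and had 16 to 78 counts.

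Of the 6 factors, 0 passed an adjusted p of 0.05 in KO against WT, Het against WT or KO against Het, and the share of all 13688 tested genes that passed was 0% in each by edgeR's quasi-likelihood test. At an unadjusted p under 0.05, 0 of the 6 passed in KO against WT, where 23.5% of all genes did, and 1 (Gata6) in Het against WT, where 19.8% did. By DESeq2, 1009 and 326 genes passed in these comparisons, and 0 of the 6 factors. In KO against Het, 0 of the 6 passed an unadjusted p under 0.05, as against 0.752% of all genes. The ranges overlapped for all 6 in each comparison, while ranges were apart for 15.9% of genes in KO against WT, 24.8% in Het against WT and 2.46% in KO against Het. The KO minus WT values lay above 0 for 6 of 6 factors and for 51.9% of all genes, with medians of 0.63 and 0.03. Without WT-2404 the median of the 6 was 0.32, and that of all genes 0.03. Scaled by library size alone, Ptf1a, Nr5a2, Gata4 and Gata6 turned to -0.36, -0.16, -0.37 and -0.75, while the median of all genes moved to -1.17. Het minus WT values lay above 0 for 6 of 6 factors and 50.3% of all genes. KO against Het gave -0.05 (Gata6) to 0.45 (Rbpjl), above 0 for 5 of 6 and 51.5% of all genes, with edgeR adjusted p of 1.0 for each. KO and Het were compared with the same WT libraries, so their values against WT are not independent.

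At equal enzyme level, in a fit that held both genotype and enzyme level, the KO minus WT differences came closer to 0 for 6 of 6 factors. They were -0.23 for Ptf1a, -0.09 for Rbpjl, 0.03 for Bhlha15, 0.16 for Nr5a2, -0.01 for Gata4 and 0.24 for Gata6, with SE from 0.22 to 0.76 and edgeR adjusted p from 0.940 to 0.999. The change was not confined to the factors. The share of all genes with an unadjusted edgeR p under 0.05 in KO against WT went from 23.5% to 5.64%. Het minus WT at equal enzyme level was below 0 for 4 of 6, at -0.32 (Ptf1a), -0.75 (Rbpjl), -0.15 (Bhlha15) and -0.02 (Gata4), with 0.14 for Nr5a2 and 0.29 for Gata6 (edgeR adjusted p of 1.0 for each). The Het value of Rbpjl thus lay farther from 0 than the 0.17 of the fit by genotype alone. Of all genes, 49.6% had a Het minus WT value above 0 at equal enzyme level. Without the enzyme level in the fit, the SE of Bhlha15 was 0.73, and with it 0.29. The enzyme share itself, 48.5% on average in WT and 71.9% in KO, did not differ beyond its spread (exact permutation test, two-sided, p = 0.114).

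**Figure D2:**
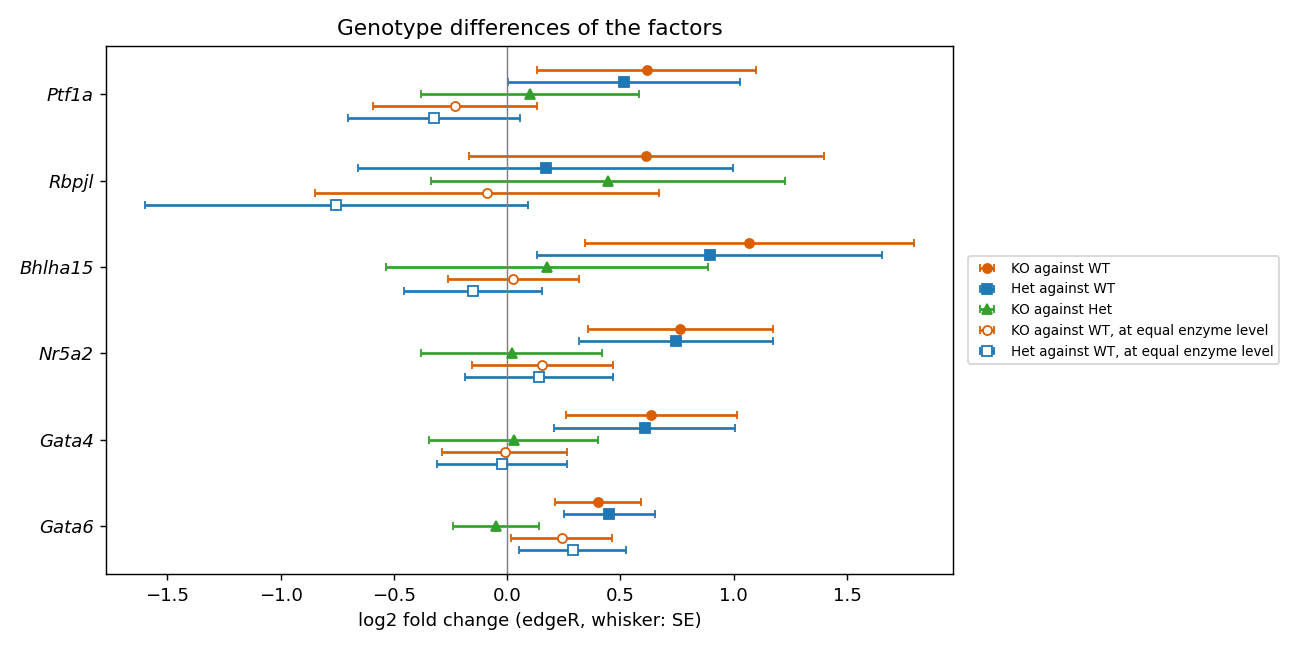
Log2 differences between genotypes (x axis) with their SE for the 6 factors, as fitted by genotype (filled) and at equal enzyme level (open). The filled KO against WT points lie between 0.40 and 1.07 and the open ones between -0.23 and 0.24.

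Across libraries, with TMM scaling, 4 of the 6 factors rose with the enzyme level. The slope gives the log2 change of a gene for each doubling of the ratio of enzyme to other counts. It was 1.13 for Bhlha15 (SE 0.11, edgeR adjusted p = 3.73e-06), close to that of the enzymes themselves, whose median was 1.25 with 25 of 27 passing. It was 0.54 for Ptf1a (SE 0.11, adjusted p = 0.00168), 0.48 for Nr5a2 (SE 0.087, adjusted p = 0.000833) and 0.44 for Gata4 (SE 0.075, adjusted p = 0.000465). Rbpjl, at 0.95 (SE 0.38, adjusted p = 0.0798), and Gata6, at 0.16 (SE 0.061, adjusted p = 0.0540), did not pass. Among all genes, 31.7% passed, 15.9% with a slope above 0. The enzyme level and TMM share counts of the same library, so the sign depends on the scaling. With library size alone the slopes of Ptf1a, Nr5a2, Gata4 and Gata6 turned to -0.07, -0.12, -0.16 and -0.44 while the median of all genes moved from 0.01 to -0.60. Of the 6 factors, 1 then passed with a slope above 0 and 2 with a slope below 0. Scaled by the counts outside the enzyme list, 4 passed above 0 and 0 below. Of the genes that passed, 2183 of 4339 had slopes above 0 with TMM, 110 of 12215 with library size alone and 945 of 5656 when scaled by the counts outside the enzyme list. Under each of the 3 scalings, 6 of 6 factors had slopes above the median of all genes.

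The share of counts outside genes moved with the enzyme level as well. It was 7.83%, 7.001% and 8.71% in WT-2404, WT-1860 and KO-2124, the 3 libraries lowest in enzymes, and 2.59% to 5.14% in the other 7. As a description computed after seeing the data, Pearson's r between log2 CPM and the log2 of this share over the 10 libraries was -0.917 for Gata4, -0.812 for Gata6, -0.770 for Nr5a2, -0.653 for Bhlha15, -0.575 for Ptf1a and -0.260 for Rbpjl. Without WT-2404 it was -0.940 for Gata4, -0.755 for Gata6, -0.712 for Bhlha15, -0.704 for Nr5a2, -0.391 for Ptf1a and 0.714 for Rbpjl. Spearman's rho of Rbpjl was then 0.4 (permutation p = 0.291). The part of this share in the relation with the enzyme level was not tested.

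Within genotypes the slopes were similar, with 4 of 6 passing against 7.16% of all genes. Bhlha15 had 1.14 (edgeR adjusted p = 7.96e-05), Ptf1a 0.61 (adjusted p = 0.0223), Gata4 0.45 (adjusted p = 0.0147) and Nr5a2 0.45 (adjusted p = 0.0282). Rbpjl had 1.09 (adjusted p = 0.200) and Gata6 0.10 (adjusted p = 0.50). Without WT-2067 only Ptf1a and Bhlha15 passed among the 6, and the count over all genes went from 980 to 187.

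**Figure D3:**
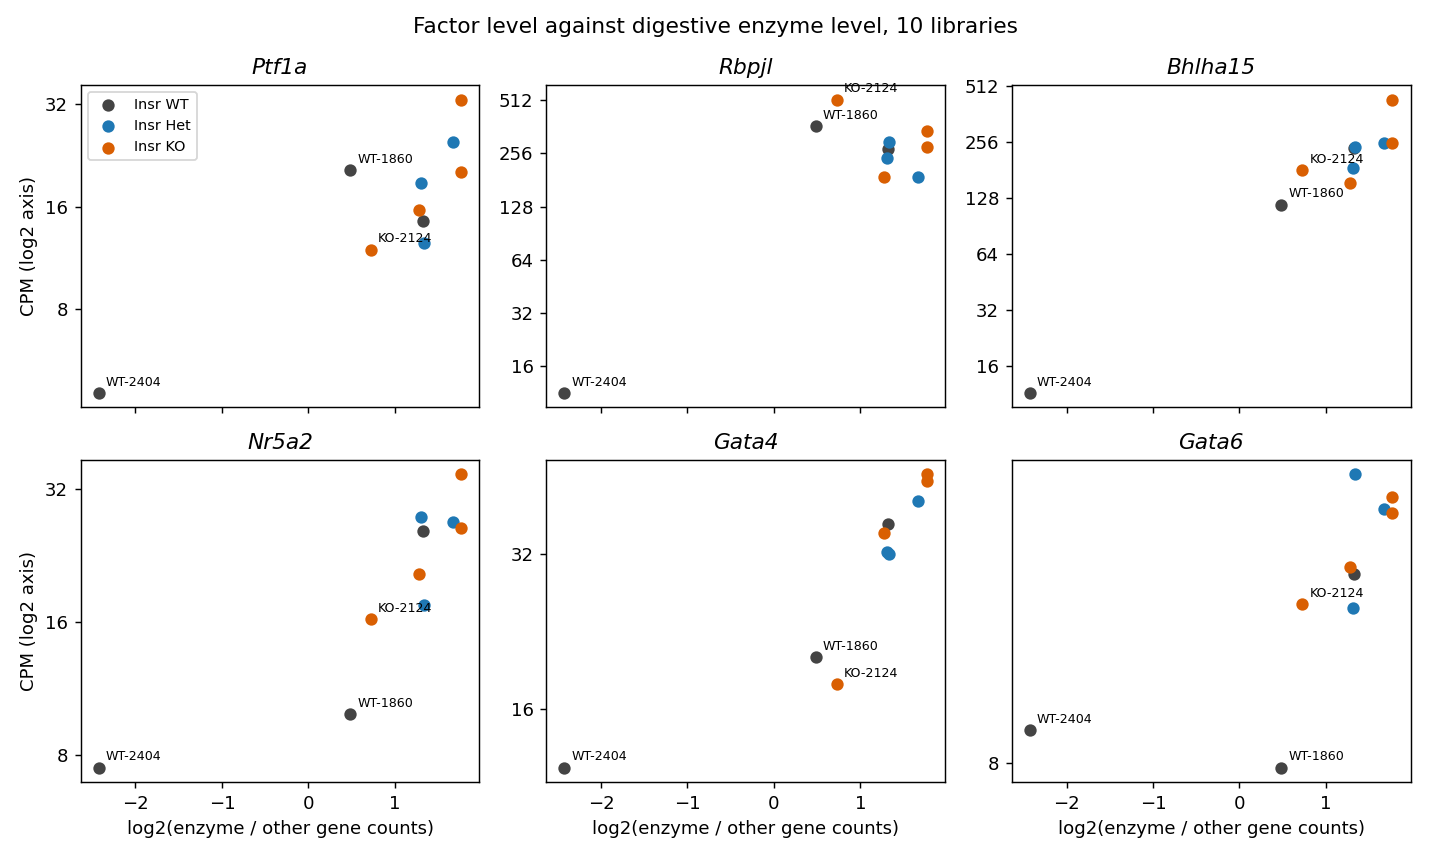
CPM of each factor (log2 axis) against the log2 ratio of enzyme to other counts in the 10 libraries, coloured by genotype. WT-2404 lies alone at an enzyme level of -2.42; to the right of it Rbpjl is highest in KO-2124 and WT-1860, while Gata4 is lowest in them.

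Leaving out WT-2404 moved the slopes of the factors unequally. Without it the slope of Rbpjl turned to -0.58 (SE 0.25, edgeR adjusted p = 0.102), and Ptf1a kept 0.48 with a wider error (SE 0.27, adjusted p = 0.215). Bhlha15 kept 0.98 (SE 0.22, adjusted p = 0.00769), and the slopes of Nr5a2 and Gata4 went up to 1.06 (SE 0.19, adjusted p = 0.00245) and 1.002 (SE 0.14, adjusted p = 0.000688). Gata6 had 0.46 (SE 0.17, adjusted p = 0.0660). Thus 3 of 6 passed among the 9 libraries, where 11.1% of all genes passed with a slope above 0. In the 7 libraries with a floxed allele, Ptf1a and Gata4 passed, as did 735 of all 12852 genes tested there, and Rbpjl stood at -0.71. By DESeq2 over all 10 libraries the slope of Rbpjl passed (adjusted p = 0.000427), as it did in edgeR without KO-2124 (1.014, adjusted p = 0.0179) or without WT-1860 (1.06, adjusted p = 0.0439).

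**Figure D4:**
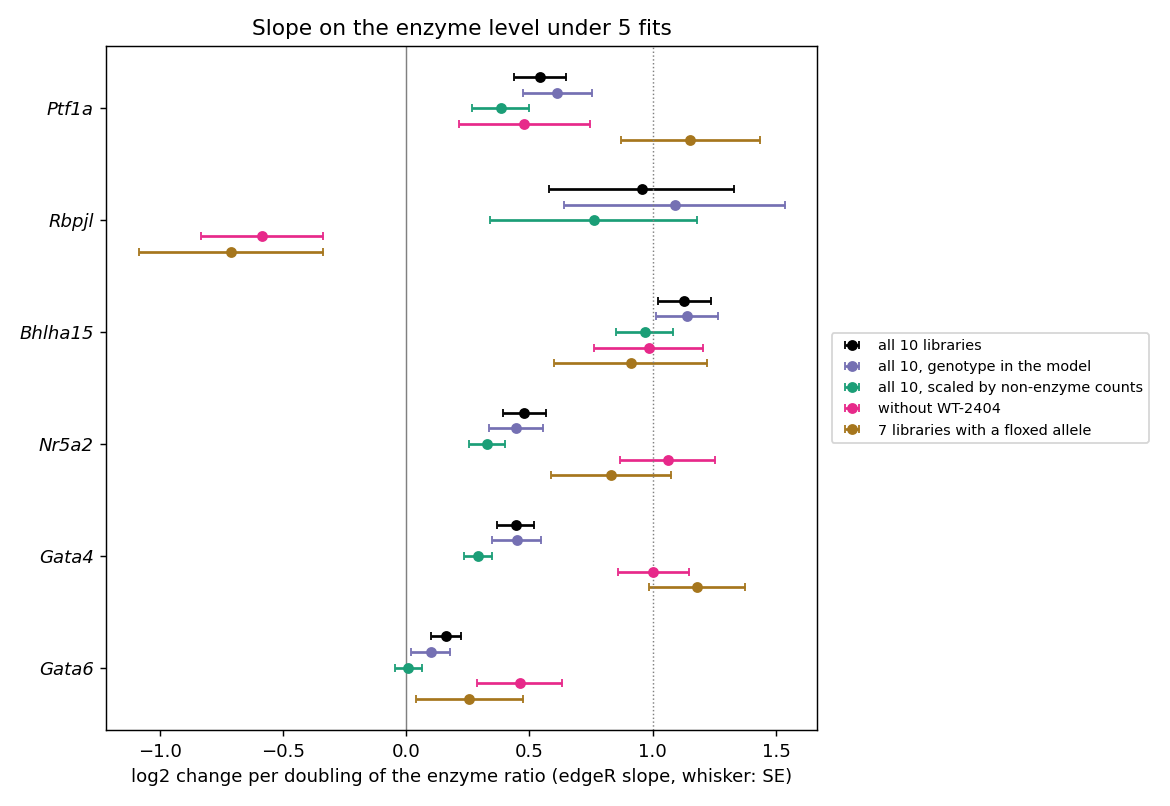
Slope of each factor on the enzyme level (x axis, log2 change per doubling of the enzyme ratio) with its SE under 5 fits; the dotted line marks a slope of 1. Rbpjl changes sign without WT-2404, from 0.95 to -0.58, while Bhlha15 stays between 0.91 and 1.14.

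As correlations of log2 CPM with the enzyme level over the 10 libraries, Pearson's r was 0.978 for Bhlha15 (permutation p = 0.00025, adjusted over all genes 0.00375) with a Spearman's rho of 0.976 (permutation p = 3e-05, adjusted 0.0110). For Gata4, r was 0.890 (permutation p = 5e-05, adjusted 0.00175) and rho 0.891 (permutation p = 0.00116, adjusted 0.0218). For Gata6, r was 0.735 (permutation p = 0.0127, adjusted 0.0489) and rho 0.842 (permutation p = 0.00384, adjusted 0.0353). For Nr5a2, r was 0.862 (permutation p = 0.00013, adjusted 0.00264) and rho 0.782 (permutation p = 0.0104, adjusted 0.0591), and for Ptf1a r was 0.862 (permutation p = 0.00819, adjusted 0.0353) and rho 0.612 (permutation p = 0.0667, adjusted 0.171). Rbpjl showed the contrast most plainly, with r = 0.851 (permutation p = 0.0935, adjusted 0.199) but rho = 0.139 (permutation p = 0.706, adjusted 0.817). Adjusted Pearson p under 0.05 were found for 26.2% of all genes and Spearman p for 15.4%. Without WT-2404 and WT-1860, the 2 libraries farthest from the median enzyme level, r was 0.961 for Gata4, 0.808 for Ptf1a, 0.782 for Nr5a2, 0.690 for Bhlha15, 0.688 for Gata6 and -0.494 for Rbpjl. Set per non-enzyme count instead of CPM, Gata6 lost the relation (r = 0.0768, permutation p = 0.767), so its correlation with the enzyme level rests on the scaling. The slopes of Ptf1a, Nr5a2 and Gata4 also depended on scaling, as given above. The others had r from 0.760 (Ptf1a) to 0.962 (Bhlha15) per non-enzyme count. The rho of Ptf1a was 0.442 (permutation p = 0.204) on this measure. Rbpjl had r = 0.774 (permutation p = 0.0985) and rho = 0.0545 (permutation p = 0.893). Without WT-2404, r per non-enzyme count was 0.898 for Gata4, 0.794 for Nr5a2, 0.640 for Bhlha15, 0.262 for Gata6, 0.138 for Ptf1a and -0.720 for Rbpjl. In CPM, r of Ptf1a without WT-2404 was 0.487 (permutation p = 0.183).

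Ratios of counts within a library need no scaling and show which factors moved unequally. Per 1000000 enzyme counts, Bhlha15 stayed between 195 (KO-2079) and 396 (KO-2124) in all 10 libraries, with 258 to 316 in WT, WT-2404 included, 212 to 289 in Het and 195 to 396 in KO. That is a 2.04-fold range, in a set of libraries where its CPM ranged 37.9-fold. Over the same libraries Gata6 per 1000000 enzyme counts ranged 19.0-fold, from 10.1 to 192 (WT-2404). Nr5a2, Gata4, Rbpjl and Ptf1a ranged 8.09-fold, 8.14-fold, 7.10-fold and 6.83-fold, and for Ptf1a, Nr5a2 and Gata4 the highest value was again in WT-2404. Gata4 per 1000000 enzyme counts was 276, 54.0 and 45.0 in WT and 35.2 to 44.1 in KO, so the groups did not overlap (exact permutation test of the log2 values, two-sided, p = 0.0286, the smallest that 3 against 4 mice can give). A KO range wholly below WT on this measure was found for 3.38% of all genes. Between Het (33.9 to 38.3) and WT the groups were also apart, as for 35.1% of genes (exact p = 0.1, the smallest possible), and the margin to WT-2067 in KO was under 1 count on this scale.

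The Rbpj to Rbpjl ratio set WT-2404 apart most. It was 2.42 there and 0.0219 to 0.0743 in the other 9 libraries. WT-2404 thus held more than 1 count of the ubiquitous Rbpj for each count of its acinar relative, and every other library held far less. Rbpj itself, at 27.5, 14.3 and 11.2 CPM in WT-2404, WT-1860 and WT-2067, stood at 7.63 to 14.1 in Het and 8.43 to 13.98 in KO. Its KO minus WT difference was -0.67 (SE 0.30, edgeR adjusted p = 0.209), and its slope on the enzyme level -0.33 (adjusted p = 0.00109), which without WT-2404 was -0.25 (adjusted p = 0.437).

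Rbpjl per count of Ptf1a was 2.50 in WT-2404 and 43.0 in KO-2124, and lay between 7.61 and 23.7 in the others. Gata6 per count of Gata4 was highest in the same pair of libraries, 0.695 in WT-2404 and 0.615 in KO-2124, against 0.288 to 0.443 elsewhere. WT-2404 and KO-2124 thus lay at opposite ends of the first ratio and at the same end of the second. KO-2124 also had the highest share of counts outside genes, 8.71% against 2.59% to 7.83% in the other libraries, and the part of that share in these ratios was not tested.

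**Figure D5:**
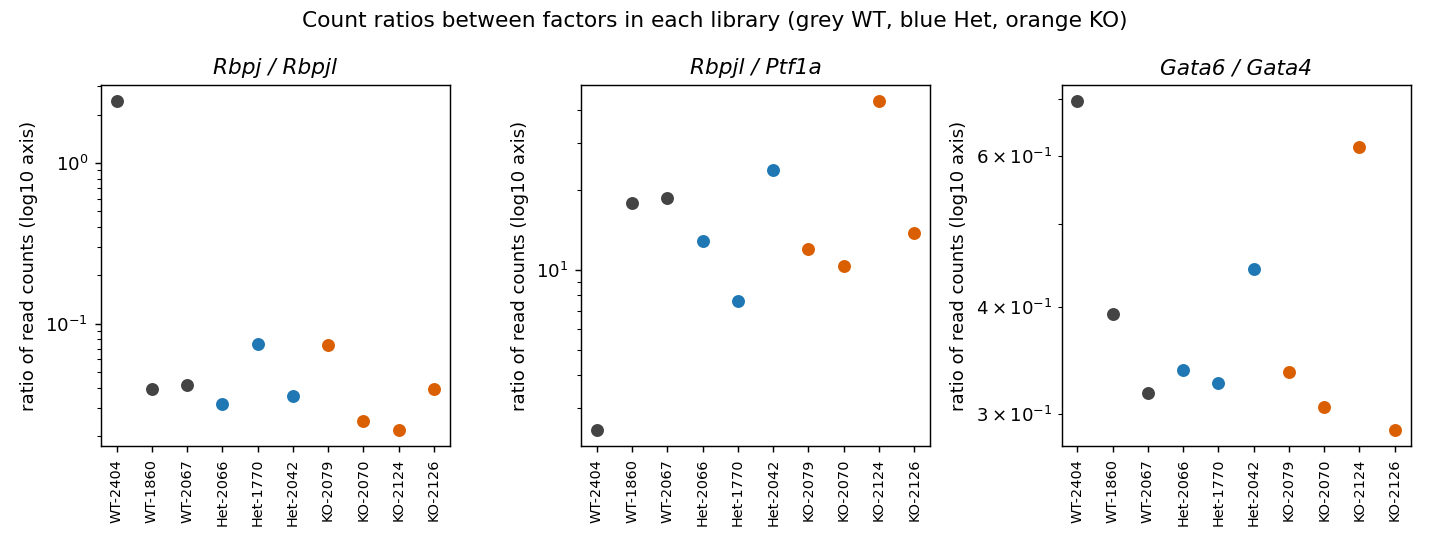
Ratios of raw counts between factors in each library (log10 axes), grey WT, blue Het, orange KO. Rbpj over Rbpjl is 2.42 in WT-2404 and at most 0.0743 elsewhere; Rbpjl over Ptf1a peaks at 43.0 in KO-2124.

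Levels per kilobase of exon allow the genes to be ranked. The medians over the 10 libraries were 60.6 CPM per kilobase for Bhlha15, 47.7 for Rbpjl, 11.5 for Ptf1a, 8.62 for Gata4, 3.92 for Nr5a2 and 1.80 for Gata6. Each gene's range over libraries overlapped that of its neighbour in this order. Within single libraries Gata4 stood above Nr5a2 in 10 of 10. Rbpjl stood above Ptf1a, Ptf1a above Gata4 and Nr5a2 above Gata6 in 9 of 10 each, all but WT-2404. Bhlha15 stood above Rbpjl in 8 of 10, all but WT-1860 and KO-2124. These orders were not tested. In WT-2404 the order was changed: Bhlha15 (3.28), Gata4 (3.15) and Ptf1a (3.01) stood above Rbpjl (1.98). The SD of log2 CPM within genotypes was 1.54 for Rbpjl and 1.30 for Bhlha15, above 99.2% and 97.8% of all tested genes, and 0.21 for Gata6, above 12.6%, with a median of 0.38 over all genes.

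Correlations between the factors were computed over all 15 pairs. Nr5a2 and Gata4 had r = 0.914 (permutation p = 0.0004, adjusted over the 15 pairs 0.00300) and rho = 0.855 (permutation p = 0.00298, adjusted 0.0223). Bhlha15 had r = 0.846 with Nr5a2 (permutation p = 0.00039, adjusted 0.00300; rho 0.794, permutation p = 0.00884, adjusted 0.0331) and 0.838 with Gata4 (permutation p = 0.00154, adjusted 0.00770; rho 0.855, permutation p = 0.0027, adjusted 0.0223). Without WT-2404 these 3 values of r were 0.835, 0.800 and 0.722, with permutation p adjusted over the pairs of 0.0742 to 0.0821. Ptf1a had r = 0.805 with Bhlha15 (permutation p = 0.0305, adjusted 0.0508; rho 0.539, permutation p = 0.113, adjusted 0.211) and 0.472 with Gata6 (permutation p = 0.172, adjusted 0.184; rho 0.297, permutation p = 0.407, adjusted 0.610), which without WT-2404 were 0.208 and 0.0952. Rbpjl and Ptf1a, the subunits of the same complex, had r = 0.744 (permutation p = 0.0721, adjusted 0.0983; rho 0.176, permutation p = 0.634, adjusted 0.792), and r = -0.223 without WT-2404. Rbpjl and Gata4 had r = 0.539 (permutation p = 0.103, adjusted 0.128; rho -0.0424, permutation p = 0.919, adjusted 0.919), and r = -0.662 without WT-2404 (permutation p = 0.0523).

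The gene most like Gata4 over the 10 libraries was Xbp1, the factor that expands the endoplasmic reticulum, with r = 0.997, and 0.996 without WT-2404. Xbp1 stood at 138, 198 and 357 CPM in WT-2404, WT-1860 and WT-2067, 305 to 387 in Het and 187 (KO-2124) to 446 in KO, the same order of high and low libraries as Gata4 at the low end. Next came Mia3 (0.990), which exports large cargo from the endoplasmic reticulum, and Prrc1 (0.986). Nr5a2 was closest to Edem3 (0.993), of glycoprotein degradation in the endoplasmic reticulum, Fam63a (0.987) and Pcca (0.985), and Bhlha15 to Gmppa (0.989), Syne4 (0.989) and Gal (0.988). Col7a1 (0.980) and Nphs1 (0.976), among the closest to Rbpjl, dropped to 0.777 and 0.637 without WT-2404. Ptf1a was closest to Mob2 (0.949), the elastase gene Cela3a (0.937) and Prcc (0.936), and Gata6 to Mrpl51 (0.960), Acsl1 (0.955) and Nr2f6 (0.951). These likenesses are Pearson's r of log2 CPM over 10 libraries that share their scaling, and up to 600 genes (for Nr5a2) had r above 0.9 with a factor.

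Of the other partners of the PTF1 complex, the 4 genes Rbpj, Tcf3, Tcf12 and Tcf4, slopes on the enzyme level lay below 0 for 4 of 4, and 2 fell with it past the test, Rbpj and Tcf3 (-0.23, edgeR adjusted p = 0.00327). Without WT-2404 the 2 that passed were Tcf3 (-0.46, adjusted p = 0.0444) and Tcf4 (-0.55, adjusted p = 0.0141). Of the Id genes, whose products keep bHLH factors from DNA, 3 of 4 fell with the enzyme level: Id2 (-0.26, adjusted p = 0.00566), Id3 (-0.36, adjusted p = 0.00929) and Id1 (-0.34, adjusted p = 0.0432). Without WT-2404 Id1 (-1.23) and Id3 (-0.90) passed. A slope below 0 that passed was found in 15.8% of all genes, and in 10.5% without WT-2404. In KO against WT 0 of these 8 genes passed (smallest adjusted p 0.154, Id2).

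The 5 genes known to depend on MIST1 followed the enzymes, as Bhlha15 did. All of Rab26, Rab3d, Copz2, Atp2c2 and Gjb1 rose with the enzyme level, with a median slope of 0.70, against 0.01 over all genes; with library size alone Rab3d and Gjb1 turned below 0. Atp2c2, the secretory pathway calcium pump, stood at 0.735, 9.02 and 22.2 CPM in WT-2404, WT-1860 and WT-2067, and at 22.0 to 34.4 in the libraries with a floxed allele (slope 1.29, SE 0.11, edgeR adjusted p = 6.85e-07). Rab3d, a GTPase of zymogen granules, stood at 36.5, 63.0 and 131 CPM in the WT libraries in the same order, 120 to 162 in Het and 70.6 to 182 in KO (slope 0.53, SE 0.08, adjusted p = 0.000227). Without WT-2404, 4 of 5 passed, and Rab26 did not (0.16, adjusted p = 0.635). Among all genes, 15.9% passed with a slope above 0, and 11.1% without WT-2404. Het lay wholly above WT for Rab26, Copz2, Atp2c2 and Gjb1, as for 11.3% of all genes, and 0 of the 5 passed in Het or KO against WT.

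Of the 6 factors of secretory capacity, 3 rose with the enzyme level with TMM scaling, Spdef (0.59, edgeR adjusted p = 6.15e-05), Atf6 (0.41, adjusted p = 0.000839) and Xbp1 (0.40, adjusted p = 0.00230), and 0 of 6 were above 0 with library size alone. Without WT-2404, Atf6 (0.95) and Xbp1 (0.96) passed. Slopes above 0 passed for 15.9% of all genes over the 10 libraries, and for 11.1% without WT-2404. Creb3l3, a membrane-bound factor better known from liver, did not follow the enzymes (0.13, adjusted p = 0.620). It stood at 1.84 to 5.19 CPM in KO, wholly above WT (1.35 to 1.59), as for 6.74% of all genes (KO minus WT 1.02, SE 0.41, adjusted p = 0.173). In Het it stood at 0.790 to 1.21 CPM, wholly below WT, as for 13.5% of all genes, so its level was not graded with the number of floxed alleles. Its counts were low, 9 to 85 per library.

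Of 8 other tested pancreatic epithelial factors, 5 rose with the enzyme level, among them Foxa3 (0.50, edgeR adjusted p = 0.000245), Nr0b2 (0.57, adjusted p = 0.000823), Foxa2 (0.30, adjusted p = 0.00559) and Pdx1 (0.25, adjusted p = 0.0485). Nr0b2 encodes SHP, a partner of NR5A2 without a DNA-binding domain. All 5 turned below 0 with library size alone, and without WT-2404 Foxa3 was among the 2 that passed (0.92, adjusted p = 0.00296). The share of all genes that passed with a slope above 0 was 15.9%, and 11.1% without WT-2404. The median slope of the 8 was 0.27. Foxa3 was wholly higher in Het, at 12.8 to 21.0 CPM against 4.33 to 11.03 in WT, as were 11.3% of all genes.

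Of the FOG cofactors and remaining GATA genes, 1 of 6 fell with the enzyme level, as did 15.8% of all genes. It was Gata1 (-0.88, edgeR adjusted p = 0.0336), a blood cell factor at 0 to 1.94 CPM. Gata5 stood at 3.43 to 6.45 CPM in WT and 0.527 to 2.12 in KO, without overlap, as for 9.15% of all genes on the lower side (KO minus WT -1.83, SE 0.50, adjusted p = 0.116). Gata1 and Gata3 lay wholly lower in Het than in WT, as did 13.5% of all genes. The cofactor Zfpm1 had a slope of 0.19 (adjusted p = 0.0807).

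The factors of ducts and of acinar-to-ductal change lay on the other side. In KO against WT, 5 of 9 were wholly lower in KO, Sox9, Hes1, Klf5, Ehf and Elf3, against 9.15% of all genes, and 0 of 9 passed the adjusted test. The ductal cell markers shared this, with 7 of 9 wholly lower in KO. Sox9, the ductal and progenitor factor, stood at 22.0, 26.7 and 26.5 CPM in WT-2404, WT-1860 and WT-2067, 15.0 to 16.9 in Het and 9.40 to 19.2 in KO (KO minus WT -0.93, SE 0.22, edgeR adjusted p = 0.116). WT-2404 lay close to the other WT libraries here, and the slope of Sox9 on the enzyme level was -0.16 (adjusted p = 0.290). Ehf stood at 23.5 to 41.2 CPM in WT and 12.8 to 21.7 in KO (-0.85, adjusted p = 0.116), and Hes1, a target of Notch signalling, at 6.92 to 13.6 and 3.23 to 6.501 (-0.98, adjusted p = 0.129). The 9 genes had a median KO minus WT difference of -0.79, against 0.03 over all genes. With the enzyme level, 2 of 9 fell, Ehf (-0.31, adjusted p = 0.00167) and Glis3 (-0.21, adjusted p = 0.0373), and without WT-2404 only Hes1 passed (-1.11, adjusted p = 0.0216). Slopes below 0 passed for 15.8% of all genes, and for 10.5% without WT-2404.

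Markers of several other cell types moved with the enzyme level too, and some were apart between genotypes. The 8 fibroblast markers summed to 4354, 1826 and 1233 CPM in WT-2404, WT-1860 and WT-2067, 500 to 965 in Het and 441 to 1109 in KO, and 7 of 8 fell with the enzyme level. The 8 macrophage markers summed to 1635, 632 and 404 CPM in the same WT libraries, 217 to 331 in Het and 129 to 469 in KO, with 7 of 8 falling. The 9 ductal markers summed to 1071 to 1650 CPM in WT, 538 to 922 in Het and 544 to 914 in KO, with 4 of 9 falling. Wholly lower in KO than in WT were 7 of 9 ductal, 5 of 8 fibroblast and 0 of 8 macrophage markers, against 9.15% of all genes. None of these passed the adjusted test. At equal enzyme level KO minus WT lay below 0 for 9 of 9 ductal markers, while 51.8% of all genes lay above 0. Islet markers, 6 of 7 of which rose with the enzyme level, summed to 470 CPM in WT-2404 and 3022 to 9764 elsewhere, and of 9 islet factors 6 rose and 1 fell, against 15.9% and 15.8% of all genes. Within genotypes 0 of the 7 islet markers and 3 of the 9 islet factors (2 higher, 1 lower) passed. With library size alone 0 of 7 markers and 0 of 9 factors rose, and 2 factors fell. Plasma cell markers gave 1 gene that rose and 2 that fell of 6 tested. Of the endothelial (85.3 to 170 CPM summed), mesothelial (21.0 to 55.5), adipocyte (31.9 to 81.5) and lymphocyte markers (2.43 to 38.2) 0 passed. Without WT-2404, 2 of 8 fibroblast, 7 of 8 macrophage, 5 of 8 lymphocyte, 0 of 9 ductal and 0 of 7 islet markers passed, as did 1 of 9 islet factors, 1 of 6 endothelial markers (lower) and 2 of 6 plasma cell markers (1 higher, 1 lower). Of the mesothelial and adipocyte markers 0 passed there. Among all genes, 11.1% passed there with a slope above 0 and 10.5% with a slope below 0. The part of these cells in the levels of the 6 factors was not tested; Gata4 and Gata6 are known to be made by mesothelial cells as well, whose summed level had r = -0.08 with the enzyme level.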

How the data were processed

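The authors deposited 1 table of raw read counts per gene symbol, 1 column per mouse, and all 10 columns were matched to mice by the genotype and number in their names. The submitters' processing notes name DRAGEN, STAR, Cufflinks and the build mm10 without versions or roles; the annotation, the counter and the use of strand are not given in the sources used here, so values of overlapping genes are uncertain. Per the labels' protocol, frozen tissue was pulverised and RNA isolated on columns. All mice share 1 more allele, which is not reported here, nor are some genes that the rule below would name. A label counts 1 WT mouse more than was analysed here.

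The 2 rows naming no gene (outside genes, 2.59% to 8.71% of counts, and ambiguous, 0.101% to 0.584%) stayed out. Of 24421 genes, 13688 passed edgeR's filterByExpr (minimum count 10). edgeR 4.0.16 (R 4.3.3; TMM, robust quasi-likelihood, two-sided, Benjamini-Hochberg over all tested genes, threshold 0.05) compared genotypes in 1 fit over 10 libraries, and tested the slope on the enzyme level alone and with genotype as a term. SEs come from the quasi-F statistic. The enzyme list has 31 genes, 30 in the table and 27 tested; those genes were in the slope's own predictor, and none of the 6 factors is among them. Wilson 95% intervals of the enzyme shares were at most 0.0565 percentage points wide and cover counting error only. Log2 CPM used a prior count of 2. Correlations used 100000 permutations (scipy 1.17.1) and were adjusted over all genes, not over the 6 factors as first planned. The script was tested on simulated data: it called 91.0% of 200 genes changed 4-fold in KO against WT (13442 genes) and 97.5% of 200 with a slope of 1 on the enzyme level (13421 genes). Genes outside the enzyme list were drawn independently of each other there, so shifts shared by many genes, as in WT-2404, were not simulated. These rates therefore do not give the power in the real data. Alternatives were DESeq2 1.42.0, 3 other scalings, no filter, only the genotypes compared, other enzyme measures, and leaving out each library. Exon lengths, gene positions and overlaps come from GENCODE M21, motif letters from RefSeq promoters.

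Genes named are the 6 factors, the 3 genes closest to each, Insr, and in each list the genes whose groups do not overlap and up to 3 more with the smallest p. The members and the 19 lists were chosen with earlier results of these data known. The p-values measure the spread between mice, 1 library each; the labels name no batch or litter.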

Additional observations from a re-analysis of the deposited data

Results flagged for a closer look

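In the KO group of 4, a single library, KO-2124, lay far from the other 3 on 4 of 28 measures tested by Dixon's ratio of gap to range, where chance would give about 1.4. Rbpjl per 1000000 enzyme counts reached 1125 there, against 214 to 278 in the rest of the group. Rbpjl per count of Ptf1a was 43.0, against 10.3 to 13.7. Gata6 per count of Gata4 was 0.615, against 0.288 to 0.336. The share of counts outside genes was 8.71%, against 2.59% to 3.48%. The measures share counts, so the 4 are not independent, and whether the share outside genes bears on the other 3 was not tested. The groups of 3 were too small for this test.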

How the results depend on the processing

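No paired analysis was possible because the mouse numbers are unique to each library. Of the values of the 6 factors under all alternatives, 94 of 102 kept direction and side of the threshold in KO against WT, 90 of 102 in Het against WT, 88 of 102 in KO against Het, 93 of 108 for the slope on the enzyme level and 83 of 96 for the slope within genotypes. The cause of the changes was not tested. The enzyme slopes with library size alone, and those without the 2 libraries farthest from the median enzyme level, were added after seeing the data.

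With library size alone, 2841 genes passed in KO against WT, 3140 in Het against WT, 12215 for the slope and 10918 within genotypes, where 2 factors passed. KO minus WT was then -0.36 (Ptf1a), -0.16 (Nr5a2), -0.37 (Gata4) and -0.75 (Gata6), and Het minus WT -0.53 (Ptf1a), -0.56 (Rbpjl), -0.24 (Nr5a2), -0.42 (Gata4) and -0.83 (Gata6). KO minus Het for Gata6 was 0.083. The slopes were -0.074 (Ptf1a), -0.12 (Nr5a2), -0.16 (Gata4) and -0.44 (Gata6), and within genotypes -0.12 (Nr5a2), -0.11 (Gata4) and -0.46 (Gata6). Scaled by counts outside the enzyme list, Het minus WT for Rbpjl was -0.10, KO minus Het for Gata6 0.017 and the slope of Gata6 within genotypes -0.032, and 2 factors passed there. DESeq2 called 1009 genes in KO against WT, 326 in Het against WT and 1580 for the slope within genotypes. With the enzyme level as a covariate, KO minus WT was -0.23 (Ptf1a), -0.090 (Rbpjl) and -0.011 (Gata4), and Het minus WT -0.32 (Ptf1a), -0.75 (Rbpjl), -0.15 (Bhlha15) and -0.022 (Gata4). In the 7 libraries with a floxed allele, 735 of 12852 tested genes and 2 factors passed for the slope, and Rbpjl stood at -0.71. Without WT-2404 and WT-1860, 919 genes passed and Rbpjl stood at -0.67.

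Leaving out 1 library at a time, 0 to 1932 genes and 0 to 1 factors passed in KO against WT and 0 to 1160 genes and 0 to 1 factors in Het against WT, the highest without WT-2067. In KO against Het 0 genes passed. For the slope, 2977 to 4520 genes and 3 to 5 factors passed, and within genotypes 187 to 1290 genes and 2 to 5 factors. Het minus WT for Rbpjl ranged from -0.37 to 0.79, its slope from -0.58 to 1.06 and its slope within genotypes from -0.65 to 1.37. KO minus Het ranged from -0.23 to 0.36 (Ptf1a), -0.20 to 0.35 (Bhlha15), -0.20 to 0.15 (Nr5a2), -0.11 to 0.23 (Gata4) and -0.15 to 0.034 (Gata6).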
